A study of Mus musculus with 6 samples.

Results

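The transcripts of the mouse mitochondrial genome were followed in 6 RNA-seq libraries of gastrocnemius, the large and mainly fast-twitch muscle of the calf. The members were every row of the deposited gene table whose gene name begins with mt-, 37 of 55995 rows, made up of 13 messenger RNAs, 2 ribosomal RNAs and 22 transfer RNAs. The values are TPM, levels scaled by the authors for transcript length and library size, so each library has the same total. Read counts were not analysed here and the depth is unknown, so precision rests on the spread between 3 libraries per group.

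All mice were NSG, a strain without mature T, B and NK cells, and all carried, under the skin of the left flank, a tumour grown from wild-type MDA-MB-231 (a breast cancer line of human origin). In the radiotherapy group (3 libraries) the tumour received a single 10 Gy dose of 6 MV X-rays at 6 Gy/min at a volume of about 800 mm3, and the muscle of the other side was taken 3 days later. In the control group (3 libraries) the tumour was not irradiated, and the tumour volume and day of sampling are not given, so a difference in either cannot be told apart from irradiation. Sex and age are also not given. Whether each library stands for its own mouse is not stated, so every p-value rests on a spread among libraries that may be technical.

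The mitochondrial genome of mammals is transcribed from both strands as long RNAs, and transfer RNAs that lie between most of the longer genes mark where these are cut. Its messenger RNAs encode the core membrane subunits of respiratory complexes I, III and IV and of ATP synthase (complex V), while the remaining subunits and all factors of mitochondrial transcription and RNA processing are encoded in the nucleus. In muscle these transcripts are abundant, and slow oxidative fibres hold more mitochondria than fast glycolytic ones.

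A pair of libraries stood apart. Radiotherapy replicate 3 had a summed level of 3068 TPM for 9 macrophage and neutrophil markers, against 36.7 and 55.0 TPM in radiotherapy replicates 1 and 2 and 89.6 to 217 TPM in the controls. Most of this was S100a8 at 1141 TPM and S100a9 at 1574 TPM. Control replicate 2 had Malat1, a long RNA retained in the nucleus, at 23.2 TPM, against 149 to 251 TPM in the 3 radiotherapy libraries and 216 to 249 TPM in the other controls. All 12 skeletal muscle markers were measured, with sums of 80252 to 148929 TPM in the radiotherapy libraries and 99231 to 103853 TPM in the controls. Of all 11938 tested features, 5 passed as higher and 2 as lower with radiotherapy. Without radiotherapy replicate 3 these counts were 236 and 3298.

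Some mitochondrial messages have near-identical copies in the nuclear genome, and the deposited table holds rows for both. These sequences are shown because they decide what a level of such a row can mean. A search of the 37 mitochondrial transcripts of GENCODE M21 (build GRCm38) against all its other transcripts found 7 pseudogenes of at least 99% identity over at least 100 bases, all on chromosome 1, and 4 more of 95% to 99% identity on chromosomes 2 and 13. Gm28437 matched 783 of the 784 bases of mt-Co3, the message of cytochrome c oxidase subunit III, with no mismatch, and the first 60 bases of both read as follows.
mt-Co3: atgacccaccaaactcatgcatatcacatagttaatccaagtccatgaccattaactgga
Gm28437: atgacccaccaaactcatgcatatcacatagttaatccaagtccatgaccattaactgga
Gm28438 matched 345 of the 348 bases of mt-Nd3, the message of a small membrane subunit of complex I, with the substitution T3C, counted from the 5′ end of the mitochondrial transcript. The first 33 bases are given with the differing base in capitals.
mt-Nd3: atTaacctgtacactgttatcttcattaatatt
Gm28438: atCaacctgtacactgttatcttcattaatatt

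Apart from mt-Co1 and mt-Nd4, the rows with such a copy kept at most 28.0% of the level. The combined level is the row's own TPM plus that of its copy, weighted by the share of the row's length that the copy covers. For mt-Co3 the row held 5.73e-04%, 5.02e-04% and 9.76e-04% of the combined level in the radiotherapy libraries, against 8.51e-04%, 0.00103% and 0.765% in the controls. For mt-Co2 the row held 1.53%, 1.95% and 1.32% in the radiotherapy libraries, against 3.10%, 1.12% and 2.41% in the controls. A similar split was seen for mt-Atp6, at 4.48% to 5.09% in the radiotherapy libraries and 4.09% to 8.48% in the controls. The rows of mt-Nd3 held 19.9% to 24.6% in the radiotherapy libraries and 13.3% to 28.0% in the controls, and those of mt-Nd4l 15.2% to 17.4% and 8.54% to 15.6%, in the same order of groups. The mt-Co1 row held 77.5% to 81.2% in the radiotherapy libraries and 73.7% to 82.3% in the controls, since Gm29216 covers 483 of its 1545 bases (99.8% identity). The mt-Nd4 row held all of its level, because Gm28439, identical over 876 of its 1378 bases, was listed at 0 in all 6 libraries.

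A longer but less similar copy held little of the level. Gm13340 on chromosome 2 covers all 1545 bases of mt-Co1 at 97.6% identity, and it lay at 12.6 to 24.5 TPM in the radiotherapy libraries and at 10.9 to 28.6 TPM in the controls. Gm29216 lay at 15910.3 to 23101 TPM in the radiotherapy libraries and at 11189 to 33111 TPM in the controls. How the authors' software placed reads that fit both a mitochondrial gene and its copy was not found among the processing notes. Levels are therefore given below as deposited and, for the 6 messages with a copy above 0, also combined, a choice made after the data were seen. The nuclear copies lie in sequence that RNA of either origin could fit, and the part of each origin was not tested.

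**Figure D1:**
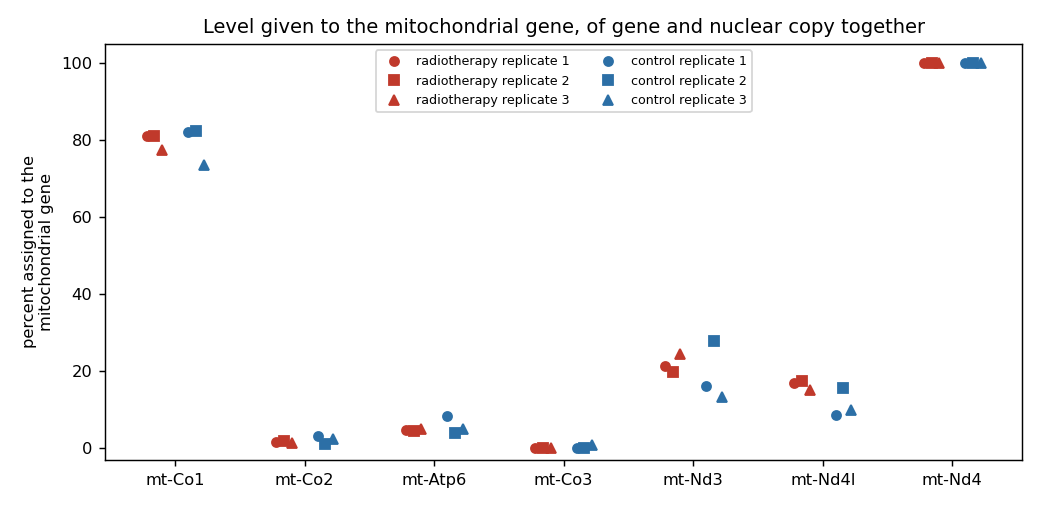
Percent of the combined level of a mitochondrial gene and its nuclear copy that the deposited table gives to the mitochondrial row, for the 7 genes with a copy of at least 99% identity. Each point is 1 library (radiotherapy red, control blue), and mt-Co2, mt-Atp6 and mt-Co3 lie below 10% in all 6 libraries.

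The mitochondrial messages were among the most abundant RNAs of the muscle in both groups, and no member passed the test in either direction. Members took 14.6%, 14.8% and 8.57% of library TPM in the radiotherapy muscles, against 11.8%, 7.07% and 13.1% in the control muscles, with means of 12.7% ± 3.56 and 10.6% ± 3.15 (SD, n = 3 each). With the full TPM of the copies added, here not weighted by length, the shares were 28.6%, 29.8% and 17.5% in radiotherapy muscles, against 22.5%, 13.9% and 27.8% in control muscles. The groups overlapped on both measures. Radiotherapy replicates 1 and 2 lay above every control, radiotherapy replicate 3 fell inside the control range, and control replicate 2 was the lowest library. The difference of the member shares was 4.10 percentage points without radiotherapy replicate 3 and 0.265 without control replicate 2. In bulk muscle, fewer mitochondria-rich cells and less mitochondrial RNA per cell cannot be told apart.

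**Figure D2:**
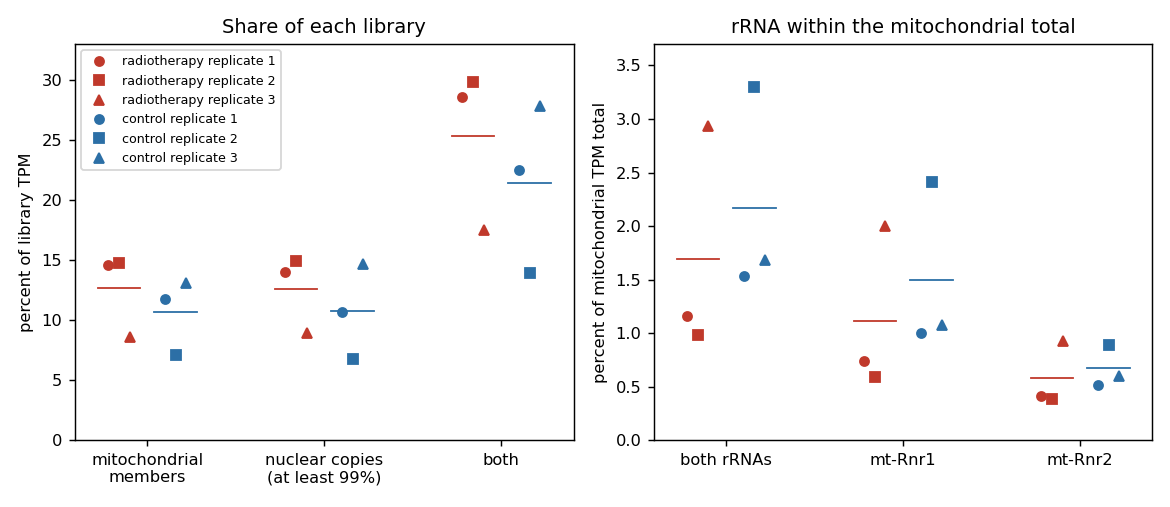
Left, percent of library TPM in the mitochondrial rows, in their nuclear copies of at least 99% identity and in both. Right, the 2 ribosomal RNAs as a percent of the mitochondrial TPM total. Points are libraries (radiotherapy red, left of control blue), lines are group means, and the groups overlap throughout.

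On the TPM scale most messages lay higher on average in the radiotherapy libraries, against the direction of most features. The limma log2 change on the log2(TPM + 1) scale, radiotherapy minus control, was above 0 for 12 of the 13 messages, with a median of 0.34, while over all 11938 tested features 21.5% were above 0 and the median was -0.36. With copies added it was above 0 for 13 of 13 messages, with a median of 0.40. The messages moved together by library, so the 12 are not separate results to set against the 21.5%. The median over all features also depended on the scaling. It was 0.01 with median-of-ratios scaling and -0.02 with quantile normalisation, where 14 and 11 of the 15 tested members were above 0. By limma 0 of 15 tested members were called in either direction at an adjusted p of 0.05, beside 0.0419% of all tested features called higher and 0.0168% called lower. At an unadjusted p of 0.05, 1 message passed as higher (mt-Nd3) and 0 passed as lower, beside 1.18% and 13.3% of all tested features. With copies added 0 passed in either direction, beside 1.17% and 13.3%. With libraries scaled to an equal mitochondrial mRNA sum, 8 of 13 were above 0, with a median of 0.08 against -0.57 over all features. The average also rested on single libraries. Without control replicate 2 the median of the 13 messages was 0.02, with 8 above 0. Without radiotherapy replicate 3 it was 0.62, and mt-Nd3 and mt-Nd4l then passed as higher in limma (adjusted p = 0.0376 and 0.0269), beside 1.98% of all features. With copies added and without that library, 0 of 13 passed beside 1.96% of all features higher and 27.7% lower, with mt-Nd3 at an adjusted p = 0.107 and mt-Nd4l at 0.571, and 1 message (mt-Nd1, higher) was under an unadjusted p of 0.05, beside 3.44% of all features higher.

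Library by library, 9 of 13 messages were higher in radiotherapy replicates 1 and 2 than in every control, an arrangement found in 6.17% of all tested features. That arrangement leaves radiotherapy replicate 3 out. Radiotherapy replicate 3 fell inside the control range for 12 of 13 messages as deposited and for 13 of 13 with copies. Control replicate 2 was the lowest of the 6 libraries for 11 of 13 messages as deposited and for 13 of 13 with copies. The messages moved together by library, so the 9 are not separate results to set against the 6.17%.

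**Figure D3:**
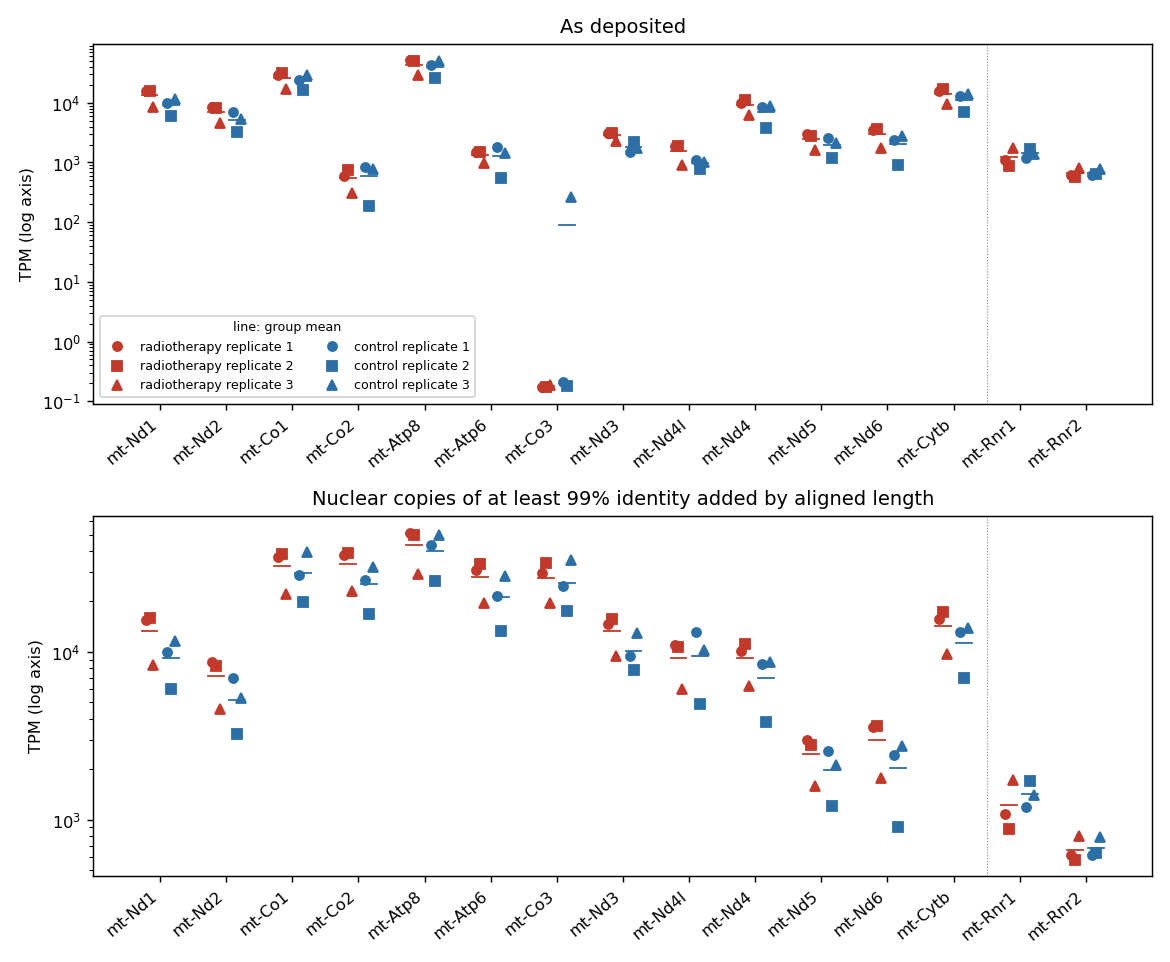
TPM of the 13 messages and 2 ribosomal RNAs in each library on log axes, as deposited (top) and with nuclear copies of at least 99% identity added (bottom), radiotherapy in red to the left of control in blue, group means as lines. The deposited mt-Co3 row is near 0 in 5 of 6 libraries. The combined levels of radiotherapy replicate 3 and control replicate 2 are the lowest for every message but mt-Nd3. For mt-Nd3, control replicate 1 (9476 TPM) lies just below radiotherapy replicate 3 (9497 TPM).

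Complex I, the NADH dehydrogenase at the entry of the respiratory chain, takes 7 of the 13 messages. mt-Nd1, which encodes a subunit at the junction of its membrane and matrix arms, had 15482, 15974 and 8348 TPM in radiotherapy muscles, against 10041, 6018 and 11632 TPM in control muscles. Radiotherapy replicates 1 and 2 were above all controls and replicate 3 was between them. The log2 change was 0.52 ± 0.35 (SE), with a 95% interval of -0.31 to 1.35 and an adjusted p = 0.484 in limma.

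mt-Nd2, another membrane subunit, had 8664, 8187 and 4585 TPM in radiotherapy muscles, against 6969, 3225 and 5299.7 TPM in control muscles. Its groups overlapped in the same way, with a log2 change of 0.48 ± 0.37 (limma adjusted p = 0.527). mt-Nd4, one of the larger proton-pumping subunits, had 10089.8, 11214 and 6254 TPM in radiotherapy muscles, against 8471, 3794 and 8672 TPM in control muscles, a log2 change of 0.45 ± 0.39 (limma adjusted p = 0.561). mt-Nd5, another of these pumping subunits, had 2985, 2781 and 1592 TPM in radiotherapy muscles, against 2564, 1202 and 2126 TPM in control muscles, a log2 change of 0.34 ± 0.38 (limma adjusted p = 0.654). In all of these radiotherapy replicates 1 and 2 exceeded every control, and radiotherapy replicate 3 lay above the lowest control only.

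mt-Nd3 was the only message whose 3 radiotherapy values all lay above the controls, an arrangement found in 1.73% of all tested features. Its deposited row had 3134, 3123 and 2334 TPM in radiotherapy muscles, against 1523, 2184 and 1719 TPM in control muscles. The log2 change was 0.67 ± 0.24, with an unadjusted p = 0.0291 and an adjusted p = 0.329 in limma. Combined with Gm28438 it had 14659.7, 15686 and 9497 TPM in radiotherapy muscles, against 9476, 7798 and 12926 TPM in control muscles. The groups then overlapped, and the log2 change was 0.40 ± 0.28 (limma adjusted p = 0.494).

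mt-Nd4l, a short membrane subunit whose message shares 7 bases with that of mt-Nd4, had 1853, 1873 and 918 TPM in radiotherapy muscles, against 1117, 763 and 1014 TPM in control muscles, a log2 change of 0.63 ± 0.35 (limma adjusted p = 0.417). Combined with Gm10222 it had 10943, 10755 and 6046 TPM in radiotherapy muscles, against 13077, 4882 and 10313 TPM in control muscles. Control replicate 1 was then the highest library, and the log2 change was 0.04 ± 0.42 (limma adjusted p = 0.967).

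mt-Nd6 is the only message annotated on the opposite strand from the other 12, and its gene shares 14 bases with that of mt-Nd5. It had 3568, 3629 and 1775 TPM in radiotherapy muscles, against 2425, 908 and 2762 TPM in control muscles, a log2 change of 0.64 ± 0.49 (limma adjusted p = 0.527). Its level per mt-Nd5, both on the TPM scale, was 1.19, 1.31 and 1.12 in radiotherapy muscles, against 0.946, 0.756 and 1.30 in control muscles, with overlap. The labels do not say whether the libraries kept strand, and without it reads of both strands over these genes cannot be told apart.

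Complex III passes electrons to cytochrome c, and its only mitochondrial message is mt-Cytb, for cytochrome b. It had 15633, 17179.7 and 9710.5 TPM in radiotherapy muscles, against 13171, 6966 and 13899 TPM in control muscles. Only radiotherapy replicates 1 and 2 were above every control, and the log2 change was 0.34 ± 0.34 (limma adjusted p = 0.612).

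Complex IV, cytochrome c oxidase, takes its catalytic core from mt-Co1, mt-Co2 and mt-Co3. mt-Co1, which binds the haem and copper of the oxygen-reducing site, had 29712, 30976 and 17160.2 TPM in radiotherapy muscles, against 23688, 16268 and 29071 TPM in control muscles. Its log2 change was 0.17 ± 0.31 as deposited (limma adjusted p = 0.796) and 0.15 ± 0.32 with Gm29216 added (limma adjusted p = 0.814), and below 0 with libraries scaled to an equal mitochondrial mRNA sum, with quantile normalisation and without control replicate 2. As deposited, radiotherapy replicates 1 and 2 lay just above control replicate 3, while with the copy added control replicate 3 was the highest library, with 36611, 38198 and 22134 TPM in radiotherapy muscles, against 28853, 19766 and 39422 TPM in control muscles.

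mt-Co2, the subunit that takes electrons from cytochrome c, had 583, 759 and 303 TPM in radiotherapy muscles, against 832, 188 and 774 TPM in control muscles, a log2 change of 0.05 ± 0.64 (limma adjusted p = 0.973). Combined with Gm28661, identical over 681 of its 684 bases, it had 38016, 38968 and 23046 TPM in radiotherapy muscles, against 26863, 16789.8 and 32099 TPM in control muscles. Radiotherapy replicates 1 and 2 then lay above all controls, and the log2 change was 0.41 ± 0.31 (limma adjusted p = 0.522).

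mt-Co3 was the message whose deposited row said least. It had 0.17, 0.17 and 0.19 TPM in radiotherapy muscles, against 0.21, 0.18 and 269 TPM in control muscles, so that control replicate 3 alone set its log2 change of -2.63 ± 1.97 (limma adjusted p = 0.522), which was -0.02 without it. Combined with Gm28437, whose first bases are printed above, it had 29644, 33859 and 19475 TPM in radiotherapy muscles, against 24666, 17429 and 35162 TPM in control muscles. It was then level with the other 2 oxidase messages, and the sign turned, at a log2 change of 0.12 ± 0.31 (limma adjusted p = 0.851).

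Complex V, ATP synthase, takes subunits 8 and 6 of its membrane rotor-stator part from mt-Atp8 and mt-Atp6. Their reading frames overlap on 1 strand, so both proteins are known to be made from a shared message. The last 63 bases of mt-Atp8 and the first 63 of mt-Atp6 are printed, with the 43 shared bases in capitals.
mt-Atp8: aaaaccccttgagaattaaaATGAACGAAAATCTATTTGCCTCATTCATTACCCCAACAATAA
mt-Atp6: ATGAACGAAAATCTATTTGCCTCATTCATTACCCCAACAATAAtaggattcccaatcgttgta

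mt-Atp8, with 204 bases the shortest of the 13 messages, had the highest mean TPM of all members both as deposited and with copies added. It had 51449, 49776 and 29243 TPM in radiotherapy muscles, against 43259, 26321 and 49837 TPM in control muscles, a log2 change of 0.13 ± 0.32 (limma adjusted p = 0.839). Its level in control replicate 3 was close to those of radiotherapy replicates 1 and 2. No copy of mt-Atp8 was found among the annotated transcripts, and nuclear sequence outside these was not searched, so none could be added. mt-Atp6 had 1485, 1505 and 999 TPM in radiotherapy muscles, against 1835, 545 and 1424 TPM in control muscles, a log2 change of 0.22 ± 0.47 (limma adjusted p = 0.826). Combined with Gm10925, identical over 678 of its 681 bases, it had 30786, 33619 and 19638 TPM in radiotherapy muscles, against 21631, 13342 and 28402 TPM in control muscles. The log2 change was then 0.44 ± 0.33 (limma adjusted p = 0.523).

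The order of the levels depended on the copies. As deposited, the mean over all 6 libraries ran from mt-Atp8 (41648 TPM) and mt-Co1 (24479) through mt-Cytb (12759.9), mt-Nd1 (11249) and mt-Nd4 (8082) to mt-Co2 (573) and mt-Co3 (45.0). With copies added, mt-Co2 (29297), mt-Co3 (26706) and mt-Atp6 (24569.8) moved up to stand behind mt-Co1 (30831) and ahead of mt-Cytb. From mt-Co1 to mt-Atp6 the ranges of neighbours over the 6 libraries overlapped. At the low end stood mt-Nd6 (2511) and mt-Nd5 (2208), above both ribosomal RNAs.

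The 2 ribosomal RNAs, mt-Rnr1 (12S) of the small and mt-Rnr2 (16S) of the large mitochondrial ribosomal subunit, made up a small part of the mitochondrial total and did not pass the test. mt-Rnr1, of 955 bases, had 1087, 885 and 1716 TPM in radiotherapy muscles, against 1182, 1706 and 1406 TPM in control muscles. It was highest in radiotherapy replicate 3 and control replicate 2, where the messages were low. The log2 change was -0.26 ± 0.31 (limma adjusted p = 0.677), and 0.21 with median-of-ratios scaling.

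mt-Rnr2, of 1582 bases, had 612, 577 and 798 TPM in radiotherapy muscles, against 613, 631 and 790.1 TPM in control muscles, a log2 change of -0.04 ± 0.25 (limma adjusted p = 0.942), which was 0.43 with median-of-ratios scaling and 0.14 with quantile normalisation. The 12S level per 16S level, both on the TPM scale, was 1.78, 1.53 and 2.15 in radiotherapy muscles, against 1.93, 2.70 and 1.78 in control muscles, with overlap. Together the ribosomal RNAs took 1.16%, 0.985% and 2.93% of the mitochondrial total in radiotherapy muscles, against 1.53%, 3.30% and 1.68% in control muscles (means 1.69% ± 1.08 and 2.17% ± 0.986, SD, n = 3 each). With the full TPM of the copies added to the total, not weighted by length, they took 0.491% to 1.44% in the radiotherapy muscles and 0.79% to 1.68% in the controls. A TruSeq kit was used on total RNA, and the labels do not say whether ribosomal RNA was removed or poly(A) RNA selected, which sets how far these shares can be compared with the messages.

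All 22 transfer RNAs were listed at 0 in all 6 libraries, so no radiotherapy effect on them could be measured. They are 59 to 75 bases long, 14 annotated on 1 strand and 8 on the other. The shortest, mt-Ts2 for serine, and mt-Tf for phenylalanine are printed to show the size of these molecules.
mt-Ts2: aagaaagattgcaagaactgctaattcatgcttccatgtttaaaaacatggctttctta
mt-Tf: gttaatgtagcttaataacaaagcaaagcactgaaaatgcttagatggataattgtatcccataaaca

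The zeros followed transcript length across the whole table. Of 52081 features whose transcript length could be read from GENCODE M21, 955 were at most 80 bases long, and 1 of these (0.105%), Gm3699, was above 0 in any library. The share above 0 was 3.36% from 81 to 120 bases, 8.25% from 161 to 200 bases and 71.3% over 1000 bases. A transfer RNA listed at 0 here is therefore not shown to be absent from the muscle.

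As a share within the mitochondrial total, which takes out changes of that total, 2 messages separated the groups as deposited. mt-Nd1 made up 10.6%, 10.8% and 9.74% of it in radiotherapy muscles, against 8.53%, 8.51% and 8.90% in control muscles (means 10.4% ± 0.547 and 8.65% ± 0.219, SD, n = 3 each). mt-Atp8 made up 35.2%, 33.5% and 34.1% in radiotherapy muscles, against 36.8%, 37.2% and 38.1% in control muscles (means 34.3% ± 0.824 and 37.4% ± 0.700, SD, n = 3 each). Shares of 1 total are not independent, since a lower share of mt-Atp8, the largest, by itself raises the others. Over all tested features divided by the same total, in 0.829% all 3 radiotherapy values lay above the controls and in 13.3% all 3 lay below. Nearly all of those features lie outside that total, so these percentages are not a rate for its parts.

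With copies added, the same 2 messages and 2 more separated the groups, beside 0.788% of features higher and 13.0% lower on that scale. The same limits hold for these shares and percentages. mt-Nd1 then took 5.73%, 5.68% and 5.09% in radiotherapy muscles, against 4.71%, 4.60% and 4.57% in control muscles. mt-Co2 took 14.1%, 13.9% and 14.1% in radiotherapy muscles, against 12.6%, 12.8% and 12.6% in control muscles, with means of 14.0% ± 0.123 and 12.7% ± 0.139 (SD, n = 3 each). mt-Atp6 took 11.4%, 12.0% and 12.0% in radiotherapy muscles, against 10.1%, 10.2% and 11.1% in control muscles.

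Among these 4, mt-Atp8 was the only one with a lower share with radiotherapy, at 19.0%, 17.7% and 17.8% in radiotherapy muscles, against 20.3%, 20.1% and 19.6% in control muscles. The other 9 messages and both ribosomal RNAs overlapped. The shares of the complexes overlapped too, with complex I at 23.2% to 24.6% in radiotherapy muscles and 21.1% to 24.9% in controls, complex IV at 38.6% to 39.5% and 37.7% to 41.9%, and complex V at 29.6% to 30.4% and 30.3% to 30.7%, each with radiotherapy before control. Radiotherapy replicate 3 and control replicate 2 stood apart in total level. That they lie on the side of their group for all 4 follows from how the 4 were picked. For mt-Nd1, radiotherapy replicate 3 (5.09%) was the radiotherapy library nearest the controls (4.57% to 4.71%).

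The shares themselves were not tested. In a related fit, of log2 levels with libraries scaled to an equal mitochondrial mRNA sum, limma called 0 of 15 members in either direction as deposited and 0 with copies added, with 0 of the 13 messages at an unadjusted p of 0.05 in both, beside 0.0503% of features called higher and 0.0251% lower as deposited, and 0.0494% and 0.0247% with copies. mt-Nd1 had a log2 change of 0.25 there as deposited (limma adjusted p = 0.616) and mt-Atp8 one of -0.13 (limma adjusted p = 0.648). With copies added, mt-Co2 had 0.14 ± 0.15 (limma adjusted p = 0.655) and mt-Atp6 0.16 ± 0.16 (limma adjusted p = 0.638). These standard errors borrow spread from all tested features and do not measure the spread of the shares. The fit therefore cannot decide whether the shares differ between the groups. With 3 libraries against 3, the smallest p that exact permutation of 1 share can give is 0.1.

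**Figure D4:**
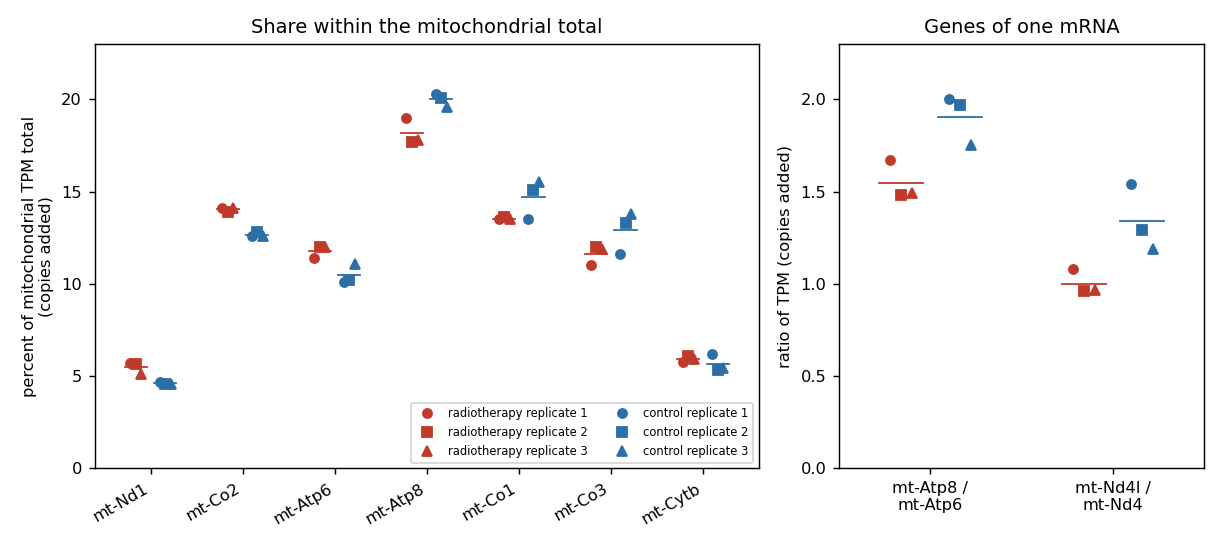
Left, 7 messages as a percent of the mitochondrial TPM total with nuclear copies added. Right, ratios of the TPM of overlapping genes. Points are libraries (radiotherapy red, left of control blue) and lines group means. The groups separate for mt-Nd1, mt-Co2, mt-Atp6, mt-Atp8 and both ratios, and overlap for mt-Co1, mt-Co3 and mt-Cytb.

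With copies added, the genes that share a message also separated the groups by their ratio. mt-Atp8 per combined mt-Atp6, both on the TPM scale, was 1.67, 1.48 and 1.49 in radiotherapy muscles, against 2.0, 1.97 and 1.75 in control muscles (means 1.55 ± 0.108 and 1.91 ± 0.134, SD, n = 3 each). Combined mt-Nd4l per mt-Nd4 was 1.08, 0.959 and 0.967 in radiotherapy muscles, against 1.54, 1.29 and 1.19 in control muscles (means 1.00 ± 0.0703 and 1.34 ± 0.183, SD, n = 3 each). For both ratios the 3 radiotherapy values lay below all 3 control values. With the deposited rows alone both ratios overlapped, so both separations rest on the added copies. The mt-Atp8 ratio was then 34.7, 33.1 and 29.3 in radiotherapy muscles, against 23.6, 48.3 and 35.0 in control muscles, and the mt-Nd4l ratio 0.147 to 0.184 in radiotherapy muscles and 0.117 to 0.201 in controls. Both ratios set a short gene against a longer partner, and the part of read placement or RNA fragment length in them was not tested. The mt-Atp8 ratio also sets a row without an added copy against one with its copy added. How often other pairs of genes separate the groups in this way was not computed. The ratios of mt-Nd6 per mt-Nd5, mt-Rnr1 per mt-Rnr2 and mt-Cytb per mt-Nd1 overlapped.

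The nuclear genes that serve these transcripts lay lower on average with radiotherapy, as most features did, and in 7 lists with 158 tested genes limma called 0 in either direction, with 1 higher (0.633%) and 15 lower (9.49%) at an unadjusted p of 0.05, beside 1.18% and 13.3% of all tested features. Of 43 tested genes of mitochondrial transcription, RNA processing and RNA modification, 16 had all 3 radiotherapy values below the controls and 1 had them above, as did 19.3% and 1.73% of all tested features, and the median log2 change was -0.45 against -0.36 over all features. Cdk5rap1, which modifies mitochondrial transfer RNAs, had 3.37, 3.48 and 3.88 TPM in radiotherapy muscles, against 8.62, 8.81 and 8.39 TPM in control muscles. The groups were far apart relative to their spread, yet the log2 change of -1.07 ± 0.22 gave an unadjusted p = 0.00161 and an adjusted p = 0.238 in limma. Fastkd3, a factor of mitochondrial RNA stability, averaged 1.64 ± 0.377 TPM in radiotherapy muscles and 4.19 ± 1.15 TPM in control muscles (SD, n = 3 each, limma adjusted p = 0.283), and Ptcd2, needed in mice for normal processing of the cytochrome b message, had a log2 change of -1.01 ± 0.29 (limma adjusted p = 0.287).

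Of 18 tested genes of mitochondrial DNA upkeep, 6 were lower and 0 higher in all 3 radiotherapy libraries, with a median log2 change of -0.41. Over all tested features 19.3% were lower and 1.73% higher in that way, with a median of -0.36. Rrm2b, a ribonucleotide reductase subunit that supplies nucleotides in resting cells and is a p53 target, had 1.87, 1.61 and 2.12 TPM in radiotherapy muscles, against 6.08, 4.37 and 6.68 TPM in control muscles, a log2 change of -1.21 ± 0.25 (limma adjusted p = 0.238). Mgme1, an exonuclease of mitochondrial DNA replication, averaged 3.80 ± 0.300 TPM in radiotherapy muscles and 6.50 ± 0.548 TPM in control muscles (SD, n = 3 each, limma adjusted p = 0.313). Sucla2, a succinate-CoA ligase subunit, averaged 71.9 ± 6.54 TPM in radiotherapy muscles and 125 ± 43.0 TPM in control muscles (SD, n = 3 each, limma adjusted p = 0.358).

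Of 20 tested genes that charge mitochondrial transfer RNAs, 2 were lower and 0 higher in all 3 radiotherapy libraries, with a median log2 change of -0.26. The same all-feature values (19.3%, 1.73% and -0.36) stand beside these. The smallest p-values of the list were those of Yars2 for tyrosine, Ears2 for glutamate and Gatc, a subunit that corrects glutamine charging, with limma adjusted p of 0.367, 0.445 and 0.465. Without radiotherapy replicate 3, 14 genes of mitochondrial RNA metabolism, 5 of DNA upkeep and 2 of transfer RNA charging passed as lower and 1, 0 and 0 as higher, beside 27.6% and 1.98% of all features.

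Control replicate 2, the library lowest in mitochondrial messages, was not low in the nuclear subunits of the same complexes. The nuclear complex I subunits, 37 tested, summed to 16604, 15635 and 11324 TPM in radiotherapy muscles, against 13505, 17054 and 15476 TPM in control muscles. The mitochondrial complex I messages with copies summed to 66392, 68227 and 38097 TPM in radiotherapy muscles, against 53021, 27827 and 53730.1 TPM in control muscles. Control replicate 2 was thus the highest library for the nuclear sum and the lowest for the mitochondrial one, while radiotherapy replicate 3 was low in both. Each library has the same TPM total, so a smaller mitochondrial share by itself raises the nuclear rows. Mitochondrial rows and copies took 13.9% of control replicate 2, against 17.5% to 29.8% in the radiotherapy libraries and 22.5% and 27.8% in the other controls. The nuclear sums were not rescaled for this, and its part in the opposite ranks was not tested.

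For complex IV the 14 nuclear subunits summed to 16572, 15844 and 12686 TPM in radiotherapy muscles, against 16388, 19217 and 18854 TPM in control muscles. The 3 mitochondrial ones with copies summed to 104272, 111025 and 64655 TPM in radiotherapy muscles, against 80382, 53985 and 106683 TPM in control muscles. Control replicate 2 again held the highest nuclear and the lowest mitochondrial sum, and the limit of the fixed TPM total holds here too. For complexes III and V the highest nuclear sums were in control replicate 3 (8376 and 15862 TPM), with control replicate 2 next (8357 and 15386 TPM). Radiotherapy replicate 3 had the lowest nuclear sum for all 4 complexes, and apart from control replicate 2 the nuclear and mitochondrial complex I sums ran in the same order but for radiotherapy replicates 1 and 2 changing places.

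The median log2 changes of the nuclear subunits were -0.12 (37 of complex I) and -0.17 (9 of complex III). Those of complexes IV (14 subunits) and V (17 subunits) were -0.28 and -0.10, and the median over all tested features was -0.36. The fall was thus smaller in all 4 lists than over all features. For 5, 3, 3 and 5 subunits, in order of complex, every radiotherapy value lay below every control value. The reverse held for 0 subunits in any of the 4 lists. Among all tested features these arrangements were found in 19.3% and 1.73%. Atp5l, a membrane subunit of ATP synthase, averaged 972 ± 35.5 TPM in radiotherapy muscles and 1551 ± 206 TPM in control muscles (SD, n = 3 each), with a log2 change of -0.66 ± 0.22 (limma adjusted p = 0.306). Uqcrfs1, the Rieske iron-sulphur protein of complex III, averaged 193 ± 5.91 TPM in radiotherapy muscles and 297 ± 15.0 TPM in control muscles (SD, n = 3 each, limma adjusted p = 0.332). Cox5a, a structural subunit of complex IV, averaged 479 ± 45.2 TPM in radiotherapy muscles and 692 ± 32.0 TPM in control muscles (SD, n = 3 each, limma adjusted p = 0.343). Ndufb4 of the complex I membrane arm averaged 59.0 ± 13.5 TPM in radiotherapy muscles and 85.2 ± 11.8 TPM in control muscles (SD, n = 3 each, limma adjusted p = 0.410). The next members by p were Ndufv1 and Ndufs3, Uqcrc2 and Uqcr10, Cox6a2 and Cox6b1, and Atp5a1 and Atp5g1, all with a log2 change below 0 and limma adjusted p between 0.332 and 0.430.

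The libraries with low mitochondrial messages were also those with low markers of slow fibres. The 8 slow-fibre markers, among them the slow myosin heavy chain Myh7, summed to 1109, 2161 and 285 TPM in radiotherapy muscles, against 1200.1, 92.3 and 1632 TPM in control muscles. Control replicate 2 was the lowest and radiotherapy replicate 3 the next lowest library for all 8 markers, as for the share of mitochondrial rows and copies. Myh7 had 177, 362 and 32.5 TPM in radiotherapy muscles, against 203, 8.61 and 251 TPM in control muscles, a log2 change of 0.71 ± 1.40 (limma adjusted p = 0.806). The 12 general muscle markers, most of them of fast fibres, were lowest in radiotherapy replicate 3 by their sum (80252 TPM) and by their mean log2 level (10.98). Control replicate 2 was not low by the sum (103853 TPM), which a few abundant genes carry, but was next lowest by the mean log2 level (11.19), with Mb, Myh1 and Myh2 at their lowest of the 6 libraries. The part of fibre makeup in the mitochondrial levels was not tested.

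**Figure D5:**
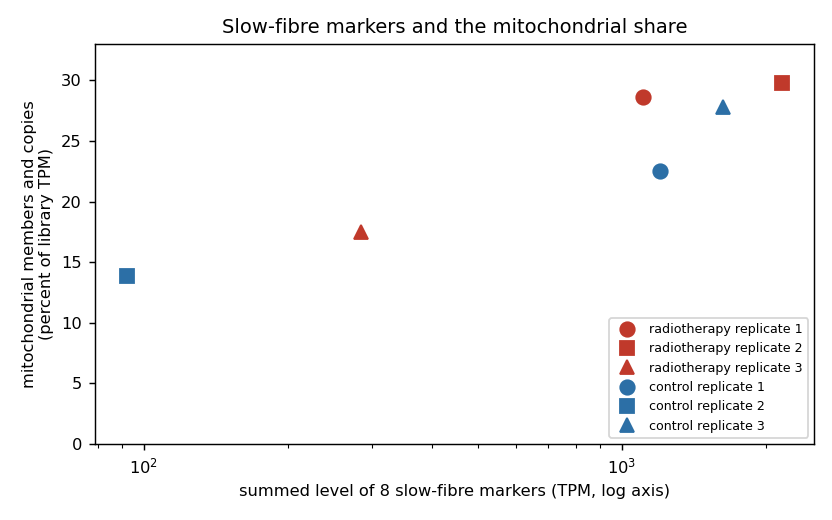
Share of library TPM in mitochondrial rows and their nuclear copies (percent, copies not weighted by length) against the summed level of 8 slow-fibre markers (TPM, log axis). Each point is 1 library, radiotherapy in red and control in blue. Radiotherapy replicate 3 (285 TPM, 17.5%) and control replicate 2 (92.3 TPM, 13.9%) lie apart at the lower left.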

How the data were processed

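RNA-seq of 3 radiotherapy and 3 control gastrocnemius libraries was used. The deposited table gives TPM per gene, made by the authors with HISAT2, StringTie and RSEM per the submitters' processing notes, which state no versions, roles or handling of multiply placed reads. Those notes name build mm9, while names and sequences here come from GENCODE M21 (GRCm38), so no positions are printed. Groups came from the labels. The members and gene lists were chosen with earlier results of these data known.

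Features averaging 1 TPM or more were tested on log2(TPM + 1) with limma 3.58.1 in R 4.3.3 (empirical Bayes with trend, two-sided, no covariates), adjusted by Benjamini-Hochberg over all 11938, with a threshold of 0.05. Log2 changes on this scale understate those of low rows. Sums, shares and ratios got no test. Nuclear copies were found with BLAST+ 2.17.0 (at least 95% identity over 100 bases, same strand) and combined by aligned length. Only the shares of library TPM and the summed ribosomal share used the unweighted TPM of the copies. Named genes were all members above 0 and the 3 smallest p-values of each list. On simulated data with these libraries' means and spread, the test recovered 1.15%, 39.5% and 67.8% of genes changed by 1, 2 and 3 on the log2 scale, and 4.7% of its calls were false.

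Alternatives were other pseudocounts and filters, 4 scalings, no trend, robust empirical Bayes, a replicate block, other denominators, each library left out and copies added.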

Additional observations from a re-analysis of the deposited data

How the results depend on the processing

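No member was called under any alternative except without radiotherapy replicate 3, where 2 were (0 to 2 over single libraries left out). Of 315 member values under alternatives, 288 kept direction and side of the threshold, 2 passed it and 25 changed sign. Sign changes were as follows. With scaling to the mitochondrial mRNA sum, mt-Co1 was at -0.10, mt-Co2 at -0.22, mt-Atp8 at -0.13 and mt-Atp6 at -0.05, and with copies added as well mt-Co1 was at -0.12, mt-Atp8 at -0.14 and mt-Nd4l at -0.24. With quantile normalisation mt-Co1 was at -0.06, mt-Cytb at -0.13 and mt-Rnr2 at 0.14, and with median-of-ratios scaling mt-Rnr1 was at 0.21 and mt-Rnr2 at 0.43. mt-Co3 was at 0.12 with copies of 99% or of 95% identity added and at 0.36 with copies added and radiotherapy replicate 3 left out. Over single libraries left out, mt-Co1 ran from -0.06 to 0.44, mt-Co2 from -0.65 to 0.42, mt-Atp8 from -0.14 to 0.40, mt-Atp6 from -0.31 to 0.57 and mt-Rnr2 from -0.18 to 0.08. The cause of these changes was not tested. The median log2 change of all tested features was -0.36 as deposited, -0.02 with quantile normalisation, 0.01 with median-of-ratios scaling and -0.57 with scaling to the mitochondrial mRNA sum.

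Over all features the 5 higher calls became 0 with no filter, 3 with median-of-ratios and 3 with quantile scaling, and 0 to 236 over single libraries left out. The 2 lower calls became 5 with a pseudocount of 0.1, 1 with a mean of at least 5 TPM, 0 with no filter, 1 with median-of-ratios and 1 with quantile scaling, 4 when rescaled without mitochondrial rows, and 0 to 3298 over single libraries left out. With copies added and radiotherapy replicate 3 left out they were 234 and 3305. The list counts of 0 became, without that library, 1 higher and 14 lower (RNA metabolism), 5 lower (DNA upkeep), 2 lower (transfer RNA charging), 1 lower (complex III) and 1 lower (complex V), and the same with copies added. They stayed at 0 without any other single library.

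With the replicate number as a block 0 features passed as lower and 0 members passed. Same-numbered libraries did not deviate together (correlations of -0.05, -0.11 and -0.20), so the numbers are not taken to pair them. The difference in mitochondrial share was 0.265 to 4.10 percentage points over single libraries left out and 5.53 with the total taken without the 20 most abundant other features. That of the ribosomal share ran from -1.10 to 0.0903 and that of the mt-Nd1 share from 1.51 to 2.02. Since every radiotherapy share of mt-Nd1 lay above every control share, its difference could not change sign in this way. Depth is unknown, so no limit for rows listed at 0 is given.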
